A study of Mus musculus with 25 samples.

Results

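The 10 core circadian clock genes Arntl, Clock, Npas2, Per1, Per2, Per3, Cry1, Cry2, Dbp and Nr1d1 were taken as a list and found by Ensembl identifier, all 10 of them among the 45706 genes of the bacTRAP table and the 44674 genes of the cEND table. The bacTRAP table held hypothalamic RNA of mice that carry Slco1c1-CreERT2, in which the promoter of Slco1c1 drives a Cre activated by tamoxifen, and ROSA26 lSl L10aGFP, from which Cre switches on a ribosomal protein tagged with GFP. All animals, on either diet, were 12 weeks old, carried 1 copy of each of both alleles and had received tamoxifen 3 weeks before the diet. A high-fat diet (HFD) or a control diet (CD) was given for 3 days. RNA bound to precipitated tagged ribosomes (IP, 4 libraries for HFD and 4 for CD) and RNA before precipitation (INPUT, 4 and 4) were sequenced, each library labelled as a pool of 2 male and 2 female mice. The cEND libraries came from a cultured endothelial line of mouse brain, 1 line throughout, given WZB117 (0.5 or 10 µM), which blocks Glut1, the main glucose carrier of these cells, or DMSO alone, each once at passages 12, 14 and 18. The hour at which tissue or cells were taken, on which the level of these genes depends, is not stated in the labels.

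The circadian clock is a transcriptional feedback loop that runs in nearly all cells. ARNTL (BMAL1) pairs with CLOCK or with its paralogue NPAS2 and activates genes through E-box elements, among them the repressors of the Per and Cry families, the output factor Dbp and Nr1d1 (REV-ERB alpha), which in turn represses Arntl. Arntl and Npas2 therefore peak at another phase of the day than Nr1d1, Dbp and the Per genes. A shift of phase can move the 2 sets in opposite directions, and so can a change of amplitude. A change of cell makeup need not, and without the hour of sampling these cannot be told apart. Hypothalamic tissue holds the central pacemaker, the suprachiasmatic nucleus, beside the local clocks of its glia, neurons and vessels.

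On GRCm38, by GENCODE M21, Arntl (ENSMUSG00000055116) lies on chromosome 7 at 113207465 to 113314126, Clock (ENSMUSG00000029238) on chromosome 5 at 76209868 to 76304792 and Npas2 (ENSMUSG00000026077) on chromosome 1 at 39193731 to 39363236. The repressor genes Per1 (ENSMUSG00000020893), Per2 (ENSMUSG00000055866) and Per3 (ENSMUSG00000028957) lie on chromosome 11 at 69095217 to 69109960, on chromosome 1 at 91415982 to 91459324 and on chromosome 4 at 151003652 to 151044665. Cry1 (ENSMUSG00000020038) lies on chromosome 10 at 85131700 to 85185064 and Cry2 (ENSMUSG00000068742) on chromosome 2 at 92403646 to 92434043. Dbp (ENSMUSG00000059824) lies on chromosome 7 at 45705088 to 45710203, and 539 of its 2993 exonic bases are shared with Sphk2 on the other strand. Nr1d1 (ENSMUSG00000020889) lies on chromosome 11 at 98767932 to 98775333, and 8.55% of its exonic bases are shared with Thra on the other strand. Whether reads were counted by strand is not given, so that reads in these stretches cannot be told apart from those of the partner gene. The same holds for 4.67% of Cry2 (D930015M05Rik) and 0.439% of Arntl (Gm45355).

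Promoter sequence was at hand in the RefSeq table (GRCm38.p6) for 9 of the 10 genes, in 13 entries; Per2 had none. Motifs were searched in windows of the 250 bases before an annotated start, in the direction of the gene. The 50 bases after the start that the entries also hold were not searched. The 250 bases before the start are printed for 3 windows, because they hold the elements through which the loop and its outputs are known to act. In Per1 (chr11:69098699-69098948, plus strand, 1 of its 2 entries) and Cry1 (chr10:85185055-85185304, minus strand), the capitals mark the E-box CACGTG, which is its own reverse complement. In Per3 (chr4:151044666-151044915, minus strand), the capitals mark the letters TTATGTAA, a D-box bound by Dbp and its relatives. The Per3 window was chosen after its matches were seen.
Per1: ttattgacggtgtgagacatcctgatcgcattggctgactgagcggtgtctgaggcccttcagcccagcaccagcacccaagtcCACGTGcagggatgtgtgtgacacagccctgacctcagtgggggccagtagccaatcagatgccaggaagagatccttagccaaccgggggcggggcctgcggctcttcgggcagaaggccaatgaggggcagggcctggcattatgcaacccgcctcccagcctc
Cry1: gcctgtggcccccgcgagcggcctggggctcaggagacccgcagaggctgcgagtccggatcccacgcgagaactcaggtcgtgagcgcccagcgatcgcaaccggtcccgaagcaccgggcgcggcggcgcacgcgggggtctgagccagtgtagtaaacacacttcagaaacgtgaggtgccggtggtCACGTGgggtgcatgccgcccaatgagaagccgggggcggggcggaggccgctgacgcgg
Per3: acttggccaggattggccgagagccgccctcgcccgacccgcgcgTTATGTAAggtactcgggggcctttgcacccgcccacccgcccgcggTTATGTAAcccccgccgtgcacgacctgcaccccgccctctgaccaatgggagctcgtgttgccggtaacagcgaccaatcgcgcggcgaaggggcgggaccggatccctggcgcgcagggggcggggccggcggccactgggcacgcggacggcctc
The E-box started 166 bases before the start of Per1 and 60 bases before that of Cry1, and no other member with an entry held it, against 6.02% of all 32851 windows of the table. The D-box occurred in Per3 only, 205 and 158 bases before the start, against 0.819% of all windows searched on both strands. The half-site AGGTCA, bound by the ROR and REV-ERB receptors, was found on either strand in Clock (119 bases before the start of 1 of its 3 entries) and in Per1 (137 bases before the same start), as in 4607 of the 32851 windows. These matches describe letters in these windows alone.

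Libraries held 27.9 to 42.8 M (1e6) estimated counts in the bacTRAP table and 27.3 to 41.3 M in the cEND table, and p-values measure the spread between pools for diet and, for WZB117, between passages of 1 line. Ribosomal and mitochondrially encoded RNA took 7.81% to 10.5% of the IP counts and 32.8% to 39.6% of the INPUT counts. The label of the tagged cells as endothelial was checked against markers. All 9 endothelial markers were called higher in IP than in INPUT (median log2 fold change 2.15), but their summed level was 46.3 to 55.8 CPM (counts per 1e6, scaled with TMM factors) in HFD IP and 39.7 to 68.1 CPM in CD IP. All 8 astrocyte markers were higher in IP as well (median 2.89), with summed levels of 22620 to 24896 CPM in HFD IP and 25057 to 28318 CPM in CD IP. Clock transcripts in IP are therefore described below as ribosome-bound RNA and are not assigned to endothelial cells. In cEND cells the 9 endothelial markers summed to 3659 to 5071 CPM and the 8 astrocyte markers to 146 to 179 CPM.

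Levels between genes were compared per length, as CPM per kb of exonic sequence. In IP, Nr1d1 stood highest, at 94.8 ± 5.73 CPM per kb with HFD and 118 ± 8.66 with CD (SD, n = 4 pools each). Dbp followed at 46.3 ± 3.8 with HFD and 56.1 ± 4.51 with CD, then Cry2 at 22.8 ± 1.61 and 25.2 ± 1.43 and Cry1 at 10.6 ± 0.680 and 11.8 ± 1.23. Arntl stood lowest, at 1.43 ± 0.119 CPM per kb with HFD and 1.16 ± 0.262 with CD. Between these, Clock overlapped with Per1, and Per3 with Npas2, on either diet. In INPUT the order was Nr1d1, then Cry2 and Dbp, which overlapped, then Clock, and Arntl was lowest again, at 1.19 ± 0.112 with HFD and 1.06 ± 0.153 with CD. In cEND cells with DMSO the order differed: Clock stood highest at 14.7 ± 1.83 CPM per kb (n = 3 passages), ahead of Cry1 at 6.35 ± 0.862. Dbp, Cry2, Nr1d1 and Arntl there overlapped in turn, at 4.56 ± 1.57, 3.45 ± 0.343, 3.27 ± 0.615 and 3.25 ± 0.607.

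The comparison of IP with INPUT asked which clock transcripts the tagged ribosomes carried, averaged over the diets. Ribosome-bound RNA was rich in the output and repressor genes of the clock and in the activator Npas2, and poor in Clock itself. Of the 10 members, 8 rose and 1 fell at an adjusted p under 0.05 (edgeR's quasi-likelihood test with Benjamini-Hochberg adjustment, the test meant by adjusted p throughout), against 41.6% of all 17592 tested genes called higher and 42.1% called lower. With 83.7% of all genes called, a call alone says little, and the sizes are given below. The libraries of IP and INPUT did not overlap for these 9 members, as for 59.9% of all genes.

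Dbp, a transcription factor of the clock's output, ran from 124 over a median of 152 to 182 CPM in the 8 IP libraries, against 32.8, 35.1 and 43.8 CPM in the 8 INPUT libraries, a log2 fold change of 2.04 ± 0.06 (SE, adjusted p = 2.34e-20). Nr1d1, the repressor of Arntl, had 279, 322 and 387 CPM in IP against 88.1, 99.6 and 107 CPM in INPUT (1.69 ± 0.04, adjusted p = 1.56e-21). For each gene the lowest IP library lay far above the highest INPUT library. Among the repressors, Cry1 rose by 1.15 ± 0.05, with 32.3 to 45.4 CPM in IP and 15.2 to 18.1 CPM in INPUT, and Per3 by 0.95 ± 0.06, with 35.2 to 48.8 and 17.9 to 23.7 CPM. Cry2 (0.74 ± 0.04), Per1 (0.73 ± 0.08) and Per2 (0.50 ± 0.08) rose less, Per2 standing at 18.3 to 28.5 CPM in IP and 12.7 to 17.0 CPM in INPUT.

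The activators did not move together. Npas2 rose by 0.98 ± 0.06, with 18.1 to 21.0 CPM in IP and 8.64 to 10.7 CPM in INPUT. Its paralogue Clock fell, with 86.2 to 103 CPM in IP and 124 to 149 CPM in INPUT (-0.54 ± 0.04, adjusted p = 2.65e-11). Their common partner Arntl had 6.34 to 12.1 CPM in IP and 6.64 to 9.82 CPM in INPUT, with overlap (0.17 ± 0.09, adjusted p = 0.0854, 95% confidence interval of -0.02 to 0.37). Its adjusted p was 0.0362 without CD INPUT pool 1 and 0.0106 without CD IP pool 3.

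**Figure D1:**
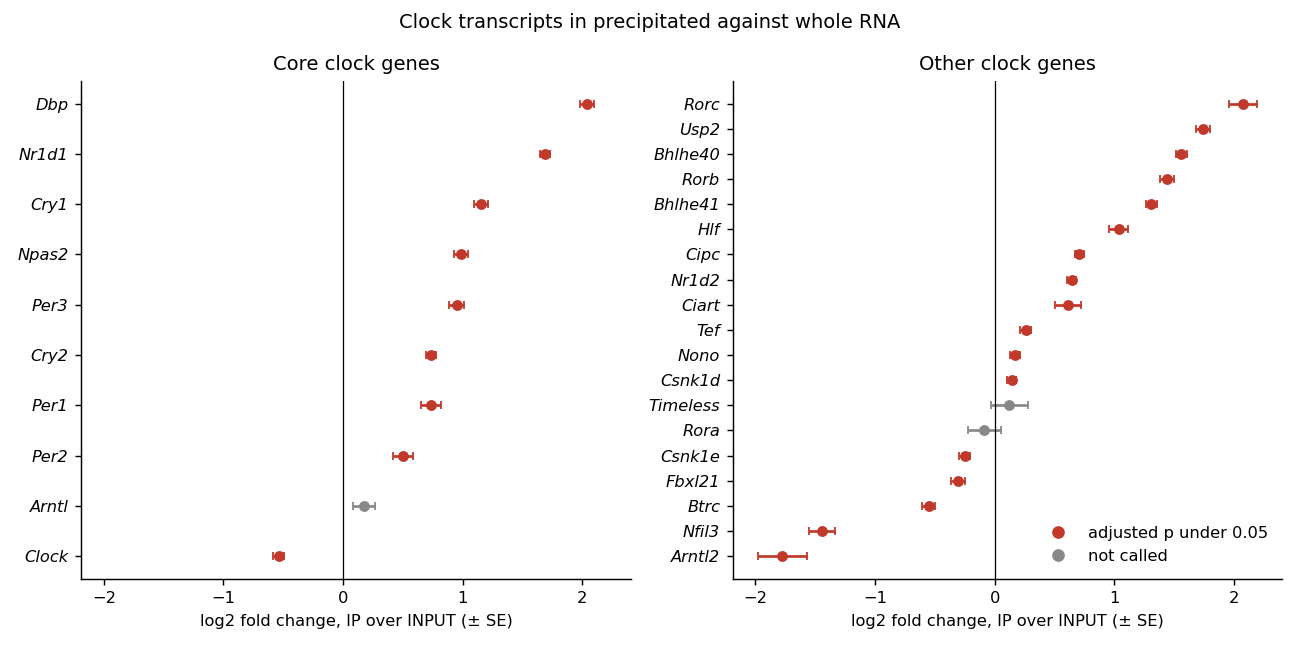
Log2 fold change of IP over INPUT (points, bars ± SE, 8 against 8 libraries) for the 10 core clock genes on the left and for the other clock genes but 1 on the right, red where the adjusted p was under 0.05. Dbp at 2.04 and Nr1d1 at 1.69 lie farthest to the right among the core genes, and Clock at -0.54 lies left of 0.

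Among 20 further clock genes, which modify or follow the loop, 13 rose and 5 fell (median 0.43, against 0.84 for the 10 core genes and -0.02 for all tested genes). Bhlhe40 (1.56 ± 0.04) and Bhlhe41 (1.31 ± 0.05), repressors at E-boxes, rose, as did Rorb (1.44 ± 0.06), an activating receptor of the ROR family. So did Usp2 (1.74 ± 0.06), a deubiquitinase of clock proteins, and Cipc (0.71 ± 0.04), an inhibitor of CLOCK. Neuronal RNA was depleted in IP, with all 6 neuron markers lower (median -1.20). The 6 still summed to 2870 to 4215 CPM in HFD IP and 3303 to 3774 CPM in CD IP. In INPUT they summed to 7094 to 9135 CPM with HFD and 7440 to 8832 CPM with CD. Whether the neuronal RNA in IP was bound to tagged ribosomes was not tested. All 11 tested of 12 markers of the suprachiasmatic nucleus fell as well (median -2.43), summing to 104 to 123 CPM in HFD IP and 118 to 135 CPM in CD IP, against 332 to 356 CPM in HFD INPUT and 311 to 323 CPM in CD INPUT. The part of cell makeup in the differences between IP and INPUT was not tested, and fewer cells of a type cannot be told apart from less RNA per cell in such pooled tissue.

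The diet comparison in IP asked whether 3 days of HFD moved the clock in ribosome-bound RNA. No member passed the test. Arntl and Clock had positive log2 fold changes and the other 8 negative ones (median log2 fold change -0.13, against 0.00 for all genes). The test called 0 of 10 members and 14 of 15858 genes (0.0883%). At an unadjusted p under 0.05 there were 5 members (Nr1d1, Dbp, Per1, Arntl and Per2) and 11.5% of all genes.

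Nr1d1 had 285, 318, 286 and 279 CPM in the HFD pools 1 to 4, against 358, 378, 327 and 387 CPM in the CD pools. All 4 HFD pools lay below all 4 CD pools, as for 2.65% of all genes (6.08% counting either direction), and Nr1d1 was the only member without overlap. Its log2 fold change was -0.30 ± 0.07 (95% confidence interval of -0.45 to -0.15, adjusted p = 0.107). DESeq2 called it (adjusted p = 0.0061), as did the fit without a filter on low counts (0.00875) and the fit with all 16 libraries (0.0140).

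Dbp stood at 136, 151, 142 and 124 CPM in the HFD pools and at 152, 162, 182 and 176 CPM in the CD pools. The lowest CD pool lay just above the highest HFD pool on this scale, and the groups overlapped on the log2 scale of the fit to the IP libraries alone (-0.26 ± 0.08, adjusted p = 0.169; 0.0274 without the filter). Per1, the fast-responding Period gene, had 40.1, 34.6, 36.8 and 34.9 CPM with HFD against 33.8, 48.8, 56.3 and 53.4 CPM with CD. CD pool 1 lay below all HFD pools and the other 3 above them. The log2 fold change of Per1 was -0.38 ± 0.13 (adjusted p = 0.296), and without CD IP pool 1 it was -0.52 (adjusted p = 0.0139). Without the filter on low counts its adjusted p was 4.66e-04.

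Per2 had 18.8, 19.3, 18.3 and 22.0 CPM with HFD and 20.8, 19.2, 28.5 and 26.7 CPM with CD (-0.26 ± 0.11, adjusted p = 0.391). CD pools 1 and 2 lay within the HFD range, and pools 3 and 4 above it. Per3 had 38.6, 35.2, 37.8 and 42.1 CPM with HFD and 37.6, 38.2, 48.8 and 38.6 CPM with CD (-0.07 ± 0.09). Its CD pool 3 stood apart, and the sign turned without that pool, to 0.02. The cryptochromes differed little: Cry1 had 32.3 to 37.6 CPM with HFD and 35.9 to 45.4 CPM with CD (-0.14 ± 0.08), and Cry2 had 131 to 153 CPM with HFD and 152 to 170.4 CPM with CD (-0.13 ± 0.07).

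Of the activators, Arntl had 10.1, 10.4, 10.5 and 12.1 CPM with HFD against 10.6, 9.99, 6.34 and 7.94 CPM with CD. The low values were those of CD pools 3 and 4, the pools in which Per2 was high. Arntl's log2 fold change was 0.31 ± 0.14 (adjusted p = 0.379). Clock had 93.8 to 103 CPM with HFD and 86.2 to 103 CPM with CD (0.12 ± 0.07), and Npas2 had 18.1 to 19.9 CPM with HFD and 18.3 to 21.0 CPM with CD (-0.06 ± 0.08), so that Npas2 did not share the sign of its phase partner Arntl.

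**Figure D2:**
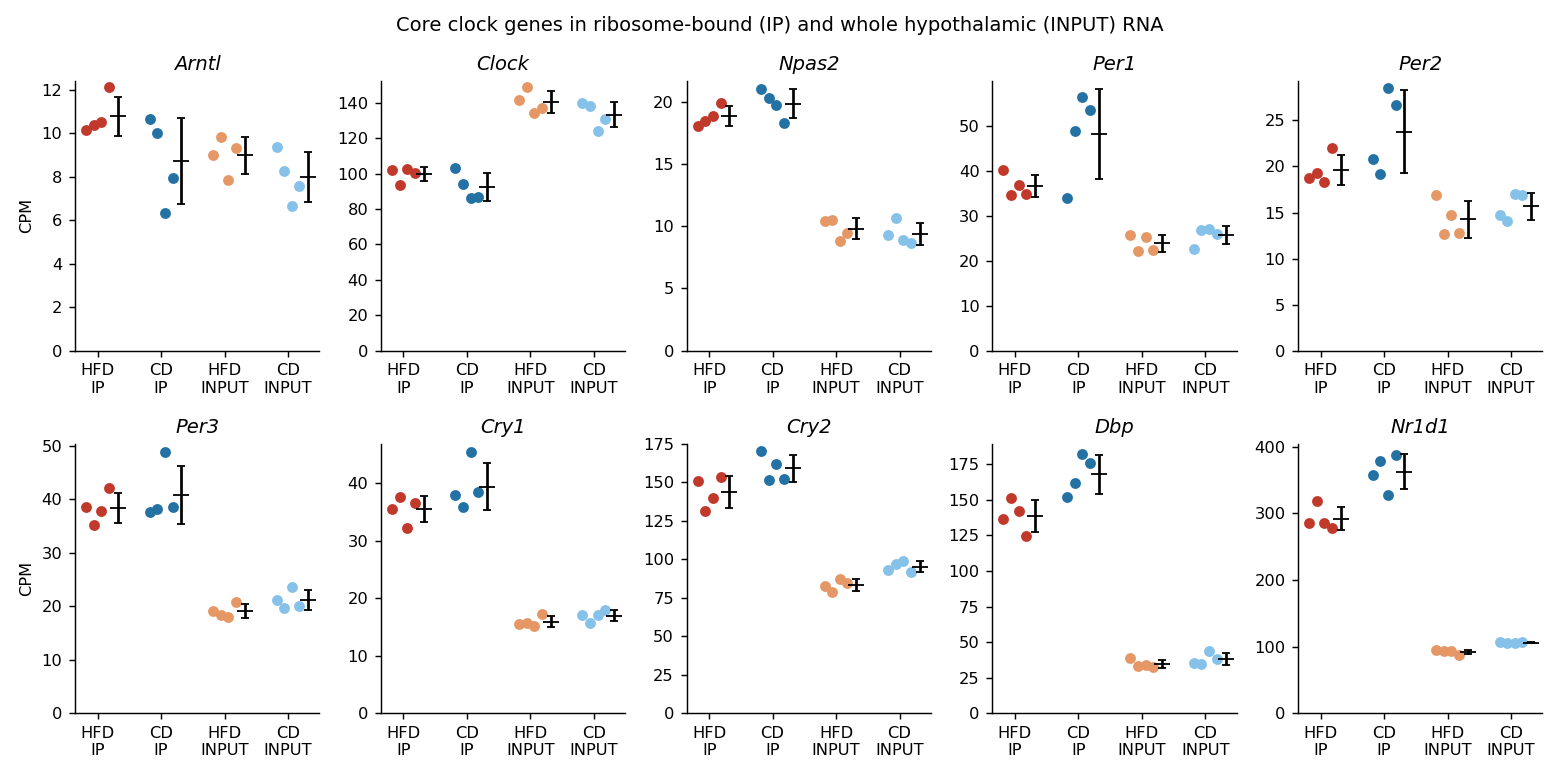
CPM of each core clock gene in every library (points, in the order of the pool numbers) of HFD IP, CD IP, HFD INPUT and CD INPUT, with mean ± SD beside them (n = 4 each), each vertical axis starting at 0. For Nr1d1 all HFD IP points (279 to 318) lie below all CD IP points (327 to 387), and for Per1 and Per2 the CD IP points spread more widely than the HFD IP points.

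In INPUT the same question was put to the whole hypothalamus. Again 0 of 10 members were called, among 6 of 16879 genes (0.0355%), and 7 members were negative and 3 positive (median -0.12). Nr1d1 had 94.3, 92.9, 94.1 and 88.1 CPM with HFD against 106, 106, 105 and 107 CPM with CD. The HFD pools lay below the CD pools without overlap, at a log2 fold change of -0.20 ± 0.05 (95% confidence interval of -0.30 to -0.10, adjusted p = 0.224; DESeq2 called it at 0.0148). Cry2 had 82.8, 78.6, 87.3 and 84.6 CPM with HFD and 92.8, 97.3, 99.0 and 91.5 CPM with CD, also without overlap (-0.19 ± 0.05, adjusted p = 0.341). These were the 2 members whose HFD pools lay wholly below the CD pools, as for 2.26% of all genes, and the 2 with an unadjusted p under 0.05, as for 7.45%. The other log2 fold changes lay between -0.15 ± 0.08 (Per3) and 0.18 ± 0.11 (Arntl), and Dbp stood at -0.13 ± 0.08.

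The diet effects in IP and INPUT were not shown to differ. The interaction called 0 of 17592 genes (0%, 755 at an unadjusted p under 0.05, and 4 by DESeq2). Its largest value among the members was that of Per1, at -0.29 ± 0.16 (adjusted p = 1.00, 95% confidence interval of -0.64 to 0.05).

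**Figure D3:**
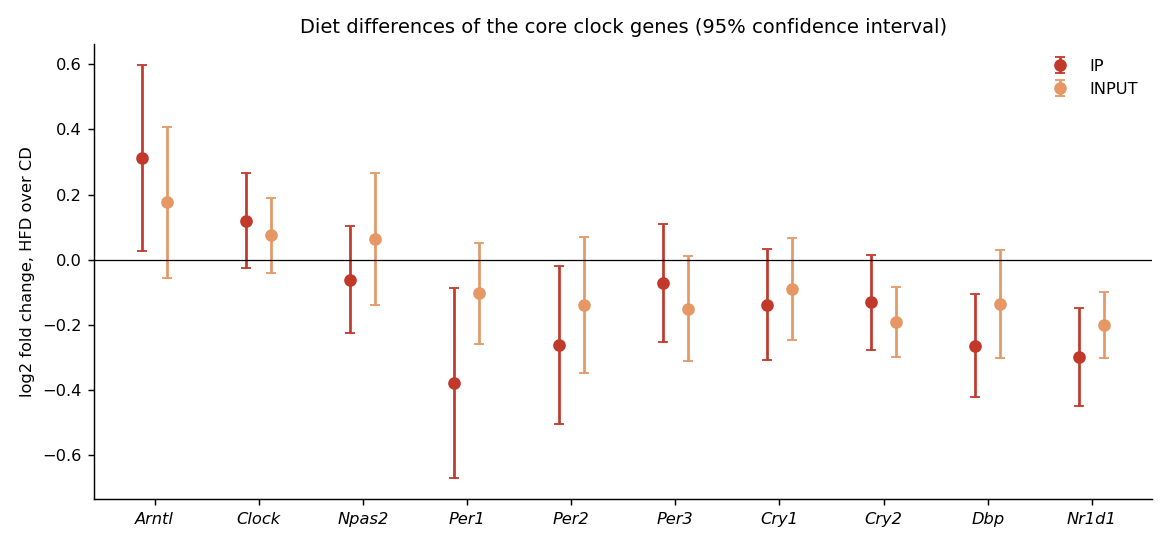
Log2 fold change of HFD over CD (points) with its 95% confidence interval (bars) for each core clock gene in IP and in INPUT, 4 against 4 pools. Nr1d1 lies at -0.30 in IP and -0.20 in INPUT, and Arntl at 0.31 and 0.18, and the intervals leave out 0 for 5 genes in IP and for 2 in INPUT.

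Genes of opposite phase were next read against each other within a library, as the log2 CPM of Per1, Per2, Per3, Dbp and Nr1d1 minus that of Arntl. These differences are a description, for which no test was made. All 5 subtract the same Arntl value, whose own change enters each of them (log2 fold change of 0.31 in IP, against -0.07 for Per3), so that a common sign is not 5 separate results. In IP all 5 were smaller with HFD. The difference of Nr1d1 averaged 4.75 ± 0.17 with HFD and 5.39 ± 0.29 with CD, that of Dbp 3.68 ± 0.22 and 4.28 ± 0.45, and that of Per1 1.76 ± 0.19 and 2.46 ± 0.63 (SD, n = 4). Per2 stood at 0.86 ± 0.04 with HFD and 1.45 ± 0.60 with CD, and Per3 at 1.83 ± 0.07 and 2.24 ± 0.50. For Nr1d1 and Per2 the HFD and CD libraries did not overlap, and for Per1, Per3 and Dbp they did. The gap was narrow for Per2, whose highest HFD library stood at 0.90 and lowest CD library at 0.94. How many of all genes, set against Arntl in this way, would not overlap was not counted. In INPUT the differences moved less, by -0.28 (Per1) to -0.38 (Nr1d1), and the diets overlapped for all 5.

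**Figure D4:**
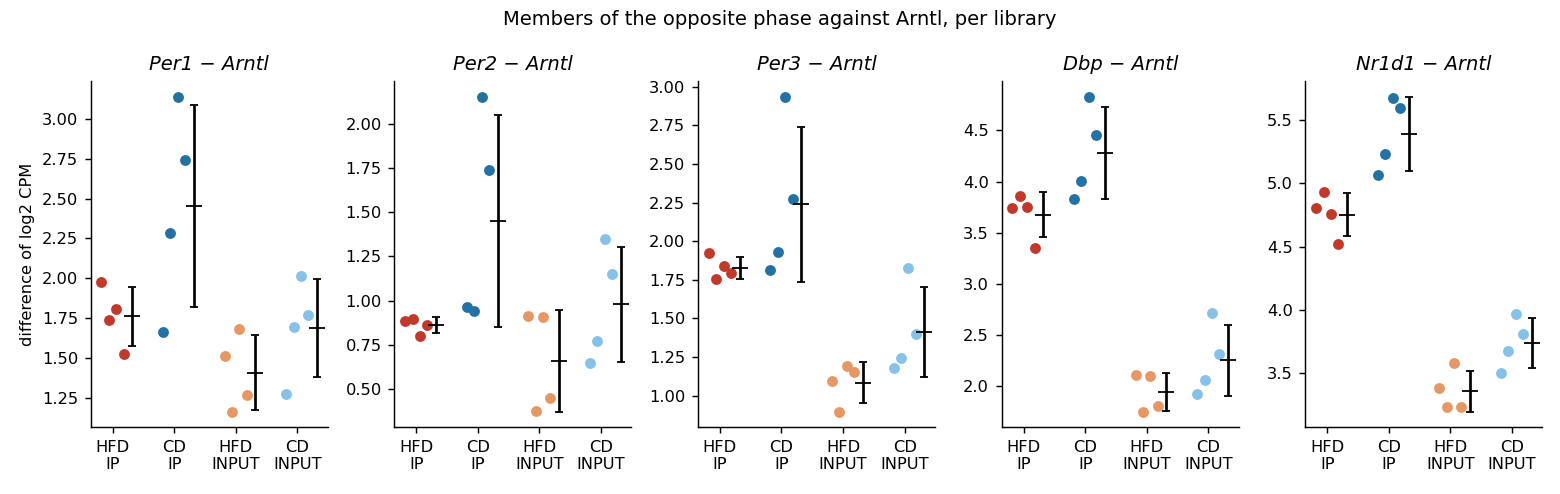
Difference of log2 CPM between each of Per1, Per2, Per3, Dbp and Nr1d1 and Arntl, per library (points) with mean ± SD beside them (n = 4), in HFD IP, CD IP, HFD INPUT and CD INPUT. The HFD IP points of Per2 lie together at 0.80 to 0.90, whereas the CD IP points run from 0.94 to 2.16.

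Among the 4 CD IP pools, Per1, Per2, Per3 and Dbp ran against Arntl, and Nr1d1 did not. CD pools 1 and 2 had the higher Arntl (10.6 and 9.99 CPM) and lower Per2 (20.8 and 19.2 CPM), and CD pools 3 and 4 the lower Arntl (6.34 and 7.94 CPM) and higher Per2 (28.5 and 26.7 CPM). Over all 8 IP libraries, Arntl ran against Per1 (Pearson r = -0.86, exact permutation p = 7.44e-04, adjusted over 20 relations 0.0149; Spearman rho = -0.88, adjusted 0.0483). Within each diet the r was -0.55 for HFD and -0.80 for CD, and without the 2 libraries farthest from the median of Arntl it was -0.56. Arntl ran against Dbp likewise (r = -0.87, exact permutation p = 0.00231, adjusted 0.0231; rho = -0.79, adjusted 0.0931), with -0.79 for HFD, -0.95 for CD and -0.77 without the 2 farthest libraries. The relation to Per2 (r = -0.80, exact permutation p = 0.0299, adjusted 0.0747; rho = -0.33, adjusted 0.503) rested on the 2 farthest libraries, CD pools 3 and 4, without which r was 0.83; within diets it was 0.93 for HFD and -0.93 for CD. For Per3 the r was -0.63 (exact permutation p = 0.127, adjusted 0.181; rho = -0.36), and 0.72 without these libraries; within diets it was 0.79 for HFD and -0.88 for CD. For Nr1d1 the r was -0.40 (exact permutation p = 0.320, adjusted 0.337; rho = -0.57), with -0.48 for HFD and 0.56 for CD.

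Over the 8 INPUT libraries no relation to Arntl passed the adjusted threshold. Per1 stood at r = -0.81 with Arntl (exact permutation p = 0.0164, adjusted 0.0533; rho = -0.86, adjusted 0.0536), with -0.74 for HFD, -0.80 for CD and -0.72 without the 2 farthest libraries. Per2 stood at -0.68 (exact permutation p = 0.0669, adjusted 0.122; rho = -0.76, adjusted 0.105), with -0.47 for HFD, -0.79 for CD and -0.41 without the 2 farthest. For Dbp the r of -0.70 (exact permutation p = 0.0470, adjusted 0.105; rho = -0.60, adjusted 0.241) rested on the 2 farthest libraries, without which it was -0.15, and it was -0.10 for HFD and -0.87 for CD. Per3 stood at -0.46 (exact permutation p = 0.258, adjusted 0.287; rho = -0.21) and at 0.59 without the 2 farthest. Nr1d1 stood at -0.51 (exact permutation p = 0.204, adjusted 0.255; rho = -0.40), with -0.41 for HFD and 0.63 for CD. INPUT and IP libraries carry the same numbers, but the labels do not say that those of 1 number come from 1 pool. Across these numbers the level of a gene in IP followed that in INPUT for Nr1d1 (r = 0.90, exact permutation p = 0.00499, adjusted 0.0326; rho = 0.88, adjusted 0.0483) and for Arntl (r = 0.85, exact permutation p = 0.00652, adjusted 0.0326; rho = 0.71, adjusted 0.144). The permutations ran across both diets, so that a diet difference common to IP and INPUT enters r and p. With the diet means taken out, r was 0.38 for Nr1d1 and 0.80 for Arntl. Nr1d1 spanned only 105 to 107 CPM in CD INPUT. Within diets the r was 0.32 for HFD and 0.91 for CD in Nr1d1, and 0.18 for HFD and 0.97 for CD in Arntl. For Per1 it was 0.85 (exact permutation p = 0.0187, adjusted 0.0533; rho = 0.90, adjusted 0.0483), with 0.90 for HFD and 0.94 for CD, and for Per3 0.84 (exact permutation p = 0.0116, adjusted 0.0465; rho = 0.52, adjusted 0.303), with 0.85 for HFD and 0.89 for CD. For Npas2 it was -0.05 (exact permutation p = 0.913; rho = 0.19).

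Of the 20 other clock genes, 0 were called with diet in either fraction. In IP 14 were negative (median -0.05), against 49.7% of all genes, and in INPUT 16 were negative (median -0.06), against 49.4%. The direction of this list was not tested. At an unadjusted p under 0.05 it held 5 genes in IP and 2 in INPUT, against 11.5% and 7.45% of all genes. Ciart, a repressor of CLOCK and ARNTL, was lowest, at -0.62 ± 0.15 in IP (adjusted p = 0.118) and -0.44 ± 0.14 in INPUT (adjusted p = 0.464), with no overlap between the diets in either. Tef, a relative of Dbp, stood at -0.26 ± 0.07 in IP and -0.15 ± 0.06 in INPUT. Bhlhe41, Rora, Bhlhe40 and Usp2 lay between -0.16 and -0.18 in IP, none called.

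Lists of signals that can reset or accompany the clock were set beside these values. Of 15 genes of the glucocorticoid response, 0 were called and 11 were negative in IP, where Plin4 (-1.30 ± 0.29, adjusted p = 0.0805), Sult1a1 (-0.80 ± 0.16) and Zbtb16 (-0.61 ± 0.15) had the smallest p. In INPUT 0 were called and 12 were negative, with Plin4 at -1.52 ± 0.26 (adjusted p = 0.0615). An unadjusted p under 0.05 was reached by 10 of these 15 genes in IP and by 6 in INPUT, against 11.5% and 7.45% of all genes. Their summed level in the CD IP pools was 2156, 3149, 3251 and 2779 CPM, lowest in pool 1 as for Per1. In the HFD IP pools it was 2259, 2501, 2720 and 2210 CPM, lowest in pool 4, whereas Per1 was highest there in pool 1 (40.1 CPM) and lowest in pool 2 (34.6 CPM). Of 9 temperature-response genes, the cold-inducible Rbm3 fell in IP (-0.47 ± 0.08, adjusted p = 0.0321) and in INPUT (-0.74 ± 0.09, adjusted p = 0.00981). Its relative Cirbp fell in INPUT (-0.51 ± 0.08, adjusted p = 0.0314) and stood at -0.48 ± 0.11 in IP (adjusted p = 0.0994). The heat-shock cochaperone Chordc1 was at 0.18 ± 0.07 in IP and 0.30 ± 0.05 in INPUT, not called. Of 11 immediate early genes, which mark recent stimulation, 0 were called in either fraction (medians 0.02 in IP and 0.12 in INPUT). Npas4 in IP (0.47 ± 0.29) and Fosb in INPUT (0.62 ± 0.22) had the smallest p in their fraction. Summed endothelial markers were 13.0 to 16.3 CPM in HFD INPUT and 10.3 to 13.6 CPM in CD INPUT. Summed astrocyte markers were lower in HFD IP than in CD IP without overlap, as given above, and summed markers of the suprachiasmatic nucleus were higher in HFD INPUT than in CD INPUT without overlap. The part of these in the diet differences was not tested.

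Across the 16 bacTRAP libraries, after the group means were taken out, the genes whose log2 CPM was most like that of Dbp were Sowaha (Pearson r = 0.89), Acap3 (0.86), Plpp1 (0.85), Camk2a (0.79) and Eef2k (0.78), among 9412 tested genes with a mean log2 CPM of at least 3. Those most like Arntl were Plekha2 (0.88), Uaca (0.84), Cxxc5 (0.84), Clock (0.81) and Inka2 (0.81). In the same residuals Arntl stood at -0.76 with Per1, -0.70 with Dbp, -0.65 with Per2, -0.46 with Per3 and -0.43 with Cry1, but at 0.23 with Nr1d1, -0.05 with Cry2 and 0.53 with Npas2. These values are a description of 16 libraries from 2 fractions, of which 1 number may mark 1 pool.

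In cEND cells the comparison asked whether blocking Glut1 moves the clock of an endothelial line in culture. With WZB117 at 10 µM, Per1 and Cry1 were higher than with DMSO at each of the 3 passages, and Dbp was lower at each. Arntl was likewise higher at each (by 0.061, 0.282 and 0.059 in log2 CPM at passages 12, 14 and 18). Per2 was lower at each (by -0.246, -0.097 and -0.118). How many of all genes kept their sign over the passages was not counted. The fit without passages called 0 of the 9 tested members, among 1.27% of 15466 genes. Passage numbers pair the libraries in these data, and with passage as a block Per1 and Cry1 rose and Dbp fell, among 18.5% of all genes called (9.23% higher and 9.29% lower). Npas2 could not be tested: 8 of the 9 libraries held 0 counts, which allows up to 0.0727 to 0.110 CPM per library by the limit of 3 counts, and DMSO at passage 18 held 2 counts. These limits cover counting error only.

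Per1 had 11.1, 12.2 and 16.6 CPM at passage 12, 10.9, 11.8 and 13.0 CPM at passage 14, and 9.95, 9.98 and 15.2 CPM at passage 18, with DMSO, 0.5 µM and 10 µM in that order. The 10 µM libraries lay above all DMSO libraries, as for 8.41% of all genes, and also above all 0.5 µM libraries. Against DMSO the log2 fold change was 0.48 ± 0.13 (adjusted p = 0.173) without a block and 0.48 ± 0.11 with passage as a block (95% confidence interval of 0.26 to 0.70, adjusted p = 0.00165). Without passage 12 the blocked adjusted p was 0.0518. DESeq2 called Per1 without a block (adjusted p = 0.0387).

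Cry1 had 24.5, 23.9 and 32.5 CPM at passage 12, 19.5, 20.5 and 25.3 CPM at passage 14, and 19.6, 20.4 and 27.5 CPM at passage 18, in the same order of doses. Only the 10 µM value stood out at each passage. The log2 fold change of 10 µM over DMSO was 0.41 ± 0.14 (adjusted p = 0.266) without a block and 0.41 ± 0.08 with it (95% confidence interval of 0.26 to 0.57, adjusted p = 3.00e-04). The windows of Per1 and Cry1 are the 2 printed above with an E-box, which describes their letters only. Dbp had 19.1, 22.0 and 15.0 CPM at passage 12, 10.8, 12.8 and 8.42 CPM at passage 14, and 11.1, 12.0 and 7.90 CPM at passage 18. At each passage the 0.5 µM value was the highest and the 10 µM value the lowest. For 10 µM over DMSO the log2 fold change of Dbp was -0.39 ± 0.34 (adjusted p = 0.797) without a block and -0.41 ± 0.10 with it (95% confidence interval of -0.61 to -0.21, adjusted p = 0.00358).

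The other 6 members were not called with 10 µM in either fit. With passage as a block, Arntl stood at 0.12 ± 0.08, Per3 at 0.14 ± 0.11, Cry2 at 0.01 ± 0.08, Clock at -0.05 ± 0.06, Nr1d1 at -0.05 ± 0.11 and Per2 at -0.17 ± 0.13. Nr1d1 had 11.7, 10.1 and 7.49 CPM at passages 12, 14 and 18 with 10 µM, against 10.4, 11.7 and 7.99 CPM with DMSO. The confidence interval of Nr1d1 was -0.29 to 0.18, and the difference between Dbp and Nr1d1 was not tested. The difference of log2 CPM between Dbp and Arntl averaged -1.40 ± 0.45 with 10 µM and -0.87 ± 0.38 with DMSO (SD, n = 3), and was lower with 10 µM at each passage. That between Per1 and Arntl averaged -0.83 ± 0.05 with 10 µM and -1.18 ± 0.32 with DMSO. It was higher with 10 µM at passages 12 and 18, whereas at passage 14 it was -0.84 with 10 µM and -0.81 with DMSO. For Nr1d1 it averaged -1.46 ± 0.38 with 10 µM and -1.28 ± 0.52 with DMSO, for Per2 -1.98 ± 0.41 and -1.70 ± 0.48, and for Per3 -0.89 ± 0.17 and -0.91 ± 0.20. The 10 µM and DMSO libraries overlapped in all 5 differences, which share the Arntl value and were not tested.

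At 0.5 µM the test called 0 of 15466 genes (0%) against DMSO, 55 at an unadjusted p under 0.05 and 0 with passage as a block. The blocked log2 fold changes of the members lay between -0.02 ± 0.08 (Cry2) and 0.18 ± 0.10 (Dbp), with a 95% confidence interval of -0.02 to 0.37 for Dbp, -0.14 to 0.30 for Per1 and -0.14 to 0.18 for Cry1. For 10 µM over 0.5 µM, which shares the 10 µM libraries with the comparison above, no member was called without a block (1.27% of all genes). With the block (17.8% of all genes) Per1 rose by 0.40 ± 0.11 (adjusted p = 0.00778), Cry1 rose by 0.39 ± 0.08 (adjusted p = 5.21e-04) and Dbp fell by 0.58 ± 0.10 on the log2 scale (adjusted p = 7.31e-05). The adjusted p of Per1 in this comparison was 0.052 to 0.0803 after leaving out any 1 library of 10 or 0.5 µM at passage 12 or 18, 0.099 without the whole of passage 12 and 0.14 without that of passage 18.

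**Figure D5:**
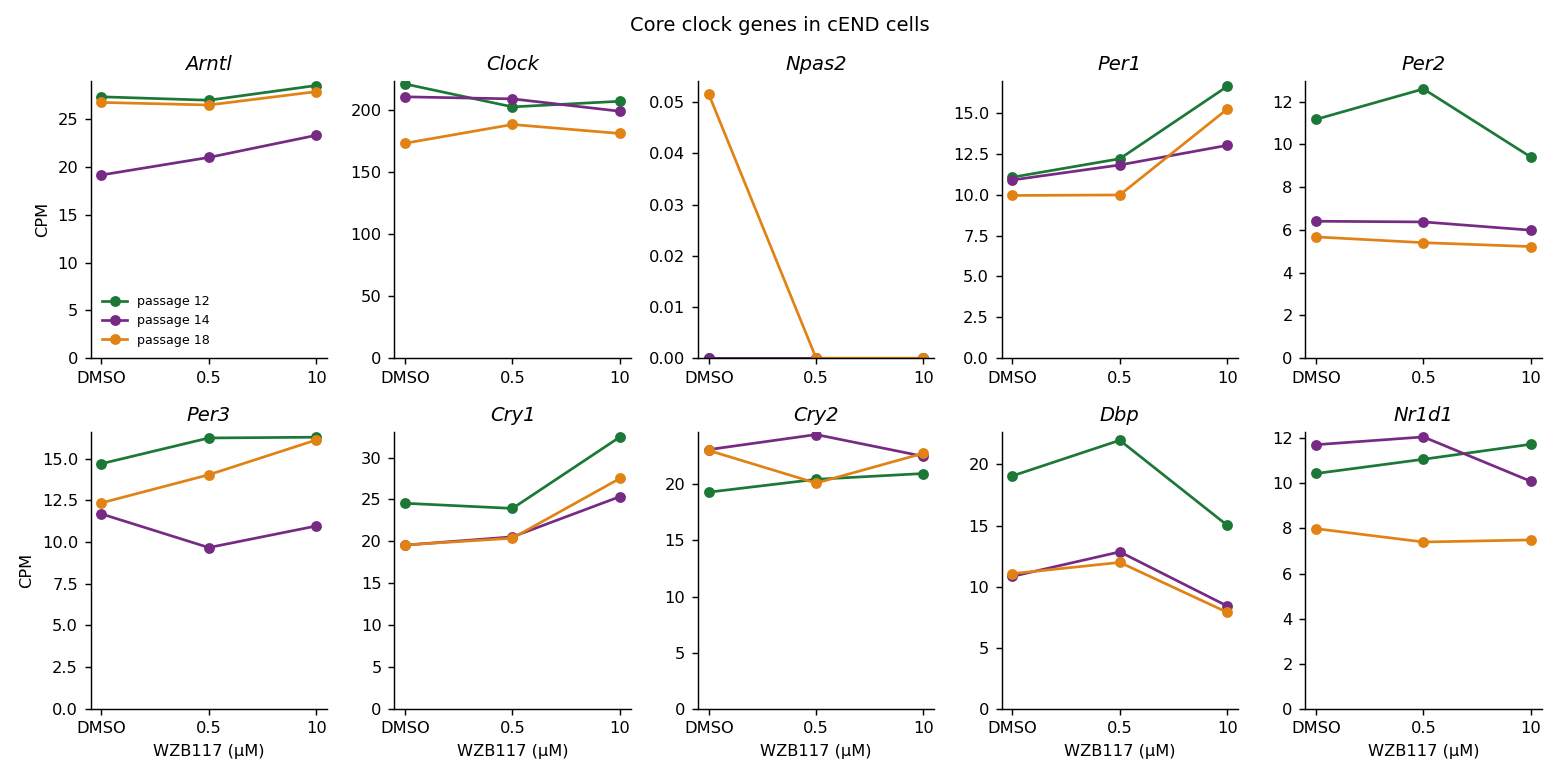
CPM of each core clock gene in the 9 cEND libraries, by WZB117 dose (DMSO, 0.5 and 10 µM, equally spaced) with 1 line per passage. Per1, Cry1 and Arntl are highest at 10 µM in every passage, and Dbp and Per2 are lowest at 10 µM in every passage. Per2 and Dbp stand higher at passage 12 than at passages 14 and 18.

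Of 20 other clock genes 18 were tested in cEND cells, and with 10 µM against DMSO 2 rose without a block: Rora (1.81 ± 0.24, adjusted p = 0.0100), an activator of Arntl, and the repressor Bhlhe40 (1.06 ± 0.19, adjusted p = 0.0299). With passage as a block, Nfil3 (1.07 ± 0.13), a repressor at D-boxes, Bhlhe41 (0.75 ± 0.14), Ciart (0.60 ± 0.12), Csnk1e (0.22 ± 0.06) and Timeless (0.22 ± 0.07) rose as well and none fell. Genes that respond to other signals moved beside them: Fos, an immediate early gene, rose (1.65 ± 0.31, adjusted p = 0.0371), and so did Cdkn1a (1.93 ± 0.21, adjusted p = 0.00497), a cell-cycle inhibitor held in the glucocorticoid list, which called 1 of its 8 tested genes. Of the 6 neuron markers 2 were tested there. Eno2, a glycolytic enzyme, rose (2.73 ± 0.16, adjusted p = 3.62e-04), and Tubb3 was not called (1.22 ± 0.52, adjusted p = 0.426). The 6 markers summed to 30.3 to 45.9 CPM with 10 µM and 6.29 to 7.35 CPM with DMSO, of which Eno2 held 28.5 to 43.5 CPM with 10 µM and 5.18 to 5.66 CPM with DMSO. The part of these in the clock differences was not tested.

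Passage was tested across the 3 treatments, with treatment as a term. Each passage occurs once per treatment, and the labels name no second culture of it, so that p-values here measure the spread among the 3 libraries of a passage, which deviate together, and not that between cultures. Between passages 18 and 12, 5 of 9 members fell and 0 rose, against 35.1% of all genes called and 19.2% called lower. Per2 had 5.22 to 5.67 CPM at passage 18 and 9.41 to 12.6 CPM at passage 12 (-1.03 ± 0.13, adjusted p = 3.78e-07). Dbp had 7.90 to 12.0 CPM at passage 18 and 15.0 to 22.0 CPM at passage 12 (-0.88 ± 0.10, adjusted p = 5.12e-08). Nr1d1 followed with 7.40 to 7.99 CPM at passage 18 and 10.4 to 11.7 CPM at passage 12 (-0.56 ± 0.11). Cry1 (-0.28 ± 0.08) and Clock (-0.23 ± 0.06) fell less. The adjusted p of Clock was 0.0891 without DMSO at passage 18 and 0.102 without DMSO at passage 12, and that of Cry1 was 0.0548 without DMSO at passage 12 and 0.271 without treatment as a term. Of the 18 other clock genes 2 rose and 7 fell, among them Nr1d2 (-0.57 ± 0.06), the paralogue of Nr1d1, and 7 of 9 endothelial markers rose.

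Between passages 14 and 12, 5 members fell and 0 rose, against 21.6% of all genes called and 11.5% called lower. Per2 (-0.82 ± 0.13) and Dbp (-0.81 ± 0.10) fell here too, with Per3 (-0.55 ± 0.11), Arntl (-0.39 ± 0.08) and Cry1 (-0.30 ± 0.08), while Nr1d1 stood at 0.02 ± 0.11. Arntl had 19.2 to 23.3 CPM at passage 14 and 27.02 to 28.6 CPM at passage 12, without overlap. Of all genes, 29.1% did not overlap between these passages, and 15.1% were lower at passage 14 without overlap. Cry1 was not called without treatment as a term (adjusted p = 0.298). Of the 18 other clock genes 1 rose and 7 fell, Nr1d2 again among them (-0.64 ± 0.06), and of the endothelial markers 1 rose and 4 fell. Between passages 18 and 14, 2 members rose and 2 fell (33.1% of all genes called, 15.8% higher and 17.3% lower): Arntl (0.34 ± 0.08) and Per3 (0.38 ± 0.11) rose, and Nr1d1 (-0.58 ± 0.11) and Clock (-0.20 ± 0.06) fell. In this comparison the adjusted p of Per3 was 0.0816 without 0.5 µM at passage 14 and 0.0596 without 10 µM at passage 18. That of Clock was 0.204 without DMSO at passage 18, 0.0764 without DMSO at passage 14 and 0.115 without 0.5 µM at passage 14. Of the other clock genes 5 rose and 3 fell, and 6 of 9 endothelial markers rose. The 3 comparisons share libraries, and passage and time of harvest, which the labels do not state, cannot be told apart.

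Across the 9 cEND libraries the genes most like Dbp were Xdh, Mrpl16, Pcdh7, Zfp281 and Lrig1 (r from 0.99 to 1.00), and those most like Arntl were Kbtbd2, Irf8, Col8a1, Rpl3 and Laptm4b (0.98 to 0.99), among 9638 genes. Arntl stood there at 0.11 with Per1, 0.50 with Dbp, 0.60 with Cry1 and 0.80 with Per3. It stood at -0.47 with Nr1d1, -0.69 with Cry2 and -0.32 with Clock. Per2 and Npas2 did not reach the mean log2 CPM of 3. These values, taken after the treatment means were removed, rest on 3 passages.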

How the data were processed

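RNA was sequenced in 16 bacTRAP and 9 cEND libraries. The authors deposited estimated counts per Ensembl gene, not scaled to a common total, of which 17.3% and 19.8% of the values were not whole. The genome build is GRCm38, per the submitters' processing notes; the aligner, counter and annotation are not given in the sources used here. Counts were rounded and fitted with edgeR 4.0.16 in R 4.3.3 (TMM, filterByExpr, robust quasi-likelihood test, 2-sided, Benjamini-Hochberg over all genes tested, adjusted p 0.05), apart for HFD against CD in IP and in INPUT. CPM used TMM factors of a whole table and log2 CPM a prior count of 2. DESeq2 1.42.0, RLE factors, no filter, removal of ribosomal and mitochondrial genes, left-out libraries and replicate blocks were alternatives; left-out libraries in the blocked fits were added after seeing the data. Same-numbered cEND passages, a number the labels give, deviated together (r of 0.378 to 0.577) and pair the libraries, so that blocked values stand beside those results. Libraries of 1 group always differed beyond sampling noise (lowest chi-square per degree of freedom 9.08). Members, lists and the rule for named genes were chosen with earlier results of these data known: all members, up to 6 other clock genes and 3 of each other list by smallest p, and the 5 genes most like Dbp and Arntl; 1 other clock gene is counted but not reported here by name. The fits were also run on simulated data, with larger changes than any member showed with diet or WZB117. That run does not test changes of the size seen in the members. Promoters are from RefSeq.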

Additional observations from a re-analysis of the deposited data

Results flagged for a closer look

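Of 40 sets of 4 pools (10 genes in HFD IP, CD IP, HFD INPUT and CD INPUT), 2 had a pool that stood apart from the other 3 by more than Dixon's 95% critical value, and chance alone gives such a pool in about 1 in 20 sets. Per3 in the third CD IP pool was at 48.8 CPM, with the other CD IP pools at 37.6 to 38.6 CPM. Dbp in the first HFD INPUT pool was at 39.0 CPM, with the other HFD INPUT pools at 32.8 to 33.7 CPM. No difference between diet effects was called for any of the 10 genes.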

How the results depend on the processing

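HFD against CD called 14 genes in IP, but 200 with DESeq2, 398 without the filter, 52 with the number as a replicate block and 121 in 1 fit of all 16 libraries, holding 1, 3, 0 and 1 of the 10 members. In INPUT it called 6 genes, but 52 with DESeq2 (1 member), 116 without the filter, 43 with the block and 2 in the joint fit. The interaction called 0 genes, 4 with DESeq2, 1 without the filter and 1 with the block. WZB117 at 10 µM against DMSO called 197 genes, 534 with DESeq2 (1 member) and 2864 with the passage block (3 members), and against 0.5 µM 197, 524 and 2759 (3 members with the block). Without treatment as a term, passages 18 and 12 differed in 3269 genes, 14 and 12 in 1623, and 18 and 14 in 2924. The cause of these differences was not tested. Same-numbered bacTRAP libraries share a number, and the labels do not say that they share a pool. Between IP and INPUT their deviations from the group means stood at r of -0.01 to 0.14, against -0.138 to 0.095 for unlike numbers. For CD the same-numbered r (0.053 to 0.109) lay above the unlike ones (-0.0571 to 0.0191), and for HFD they overlapped. The block there brought 1 member past the threshold, Arntl in IP against INPUT (0.17, adjusted p = 0.0245). Arntl passed without the filter too (adjusted p = 0.0362). With the passage block Nr1d1 at 0.5 µM against DMSO turned to -0.0037.

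With 1 library left out in turn, HFD against CD called 5 to 50 genes and 0 to 1 members in IP, 2 to 17 genes in INPUT, and 0 to 1 genes for the interaction. The 10 µM comparisons called 38 to 195 genes against DMSO and 33 to 152 against 0.5 µM. Passages 18 and 12 differed in 3 to 5 members, 18 and 14 in 2 to 4, and 14 and 12 in 2086 to 3668 genes. In the blocked fits, with a library or a whole passage left out, 10 µM called 1628 to 2857 genes against DMSO and 1493 to 2709 against 0.5 µM, and 0.5 µM called 0 to 8 against DMSO. In IP 7 of the 8 omissions moved the count by over 1.5 times (all but CD IP pool 2; 50 genes without HFD IP pool 2 and 5 without CD IP pool 4), and in INPUT 4 did (CD pools 3 and 4, HFD pools 2 and 4). Against DMSO the 10 µM count so moved without DMSO at any passage and without 10 µM at passages 12 and 18. Against 0.5 µM it did without 0.5 µM at passages 12 and 14, 10 µM at passages 12 and 18 or DMSO at passage 14. The lowest counts came without DMSO at passage 12 (38, and 2086 for passages), 10 µM at passage 12 (33) and all of passage 12 (1628 and 1493).

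Log2 fold changes that were not called and changed sign on leaving out a library had these ranges. For HFD against CD in IP they were Per3 -0.12 to 0.024. For the interaction they were Clock -0.00095 to 0.085 and Cry1 -0.11 to 0.0098. For 10 µM against DMSO they were Arntl -0.033 to 0.21, Clock -0.15 to 0.029, Per2 -0.48 to 0.19, Cry2 -0.062 to 0.054 and Nr1d1 -0.20 to 0.11. For 0.5 µM against DMSO they were Arntl -0.13 to 0.12, Clock -0.12 to 0.054, Per2 -0.40 to 0.42, Per3 -0.13 to 0.22, Cry1 -0.063 to 0.14, Cry2 -0.11 to 0.032, Dbp -0.15 to 0.50 and Nr1d1 -0.14 to 0.19. For 10 against 0.5 µM they were Arntl -0.0093 to 0.18, Clock -0.072 to 0.026, Per2 -0.53 to 0.23, Per3 -0.067 to 0.30, Cry2 -0.021 to 0.12 and Nr1d1 -0.24 to 0.10. For passage 14 against 12 they were Clock -0.081 to 0.012 and Nr1d1 -0.054 to 0.11. For passage 18 against 14 they were Per1 -0.18 to 0.027 and Cry1 -0.010 to 0.066. With the passage block, for 10 µM against DMSO they were Clock -0.10 to 0.0063, Cry2 -0.025 to 0.068 and Nr1d1 -0.15 to 0.043. With the passage block, for 0.5 µM against DMSO they were Arntl -0.040 to 0.054, Clock -0.075 to 0.050, Per2 -0.071 to 0.086, Per3 -0.093 to 0.16, Cry1 -0.0084 to 0.062, Cry2 -0.081 to 0.079 and Nr1d1 -0.070 to 0.059. With the passage block, for 10 against 0.5 µM they were Clock -0.072 to 0.010, Cry2 -0.052 to 0.11 and Nr1d1 -0.14 to 0.056. 

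At the depth of the cEND libraries Npas2 was not detected in 8 of 9.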
